A study of Mus musculus with 56 samples.

Results

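B3gnt8, Dennd5b and Upb1 are 3 of the 30199 genes on a mouse whole genome array that was hybridized with blood RNA of 28 mice injected with 90Sr and 28 control mice. They were picked by name because their signal had been seen to fall strongly in the 90Sr mice of these same arrays, so the size of that fall is given here as a description and without a test. All 3 passed the filter on detection, which left 18796 genes, and the filter on variation, which left 14580 genes for testing. The mice were C57BL/6 animals of 10 to 12 weeks of age and were in 10 groups, with 1 control and 1 90Sr group killed at day 4, 7, 9, 25 or 30 of the experiment, which began with a single tail vein injection. The 90Sr mice received 200 kBq of strontium chloride traced with 85Sr, and the control mice of each day received saline. Groups held 4 mice each at day 4 and 6 mice each at later days, with 1 array per mouse and no pooling. Blood was drawn from the heart into PAXgene tubes, which lyse all blood cells, and globin transcripts were removed before labeling, so that every cell type of the blood contributed to each value. In such a sample, fewer cells of a type and less RNA per cell cannot be told apart.

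The 3 genes encode enzymes and a regulator of unrelated pathways. B3gnt8 is a Golgi transferase that adds N-acetylglucosamine to growing N-acetyllactosamine chains on the branches of N-linked glycans, and it works in a complex with its relative B3gnt2. Dennd5b belongs to the DENN domain proteins, which switch on Rab GTPases by exchanging their bound nucleotide and so direct vesicle traffic, and together with Dennd5a it is known to act on Rab39. Upb1, beta-ureidopropionase, carries out the last step of pyrimidine breakdown after Dpyd and Dpys, releases beta-alanine and is best known from the liver. 90Sr is a beta emitter that follows calcium into bone and irradiates the marrow where blood cells are made, and B lymphocytes are among the blood cells most sensitive to radiation. Monocytes come in a classical form, which carries Ly6C and leaves the blood for inflamed tissue, and a patrolling form, which crawls along the vessel wall.

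The promoters of the 3 genes are shown because the genes were low together in the 90Sr mice. Each covers 300 bases around the RefSeq start of the gene on GRCm38.p6, most of them upstream, and reads 5′ to 3′ on the strand of the gene. Capitals mark every match to 9 short motifs, searched on both strands: GAGGAA (PU.1, a myeloid and B cell factor), the palindrome of EBF1, a B cell factor, ATGCAAAT (the octamer), TTGCNNAA (C/EBP), TGTGGT (RUNX), the IRF motif, GGGCGG (the GC box), CCAAT and TATAAA (the TATA box).
B3gnt8, chr7:25627374-25627673, plus strand: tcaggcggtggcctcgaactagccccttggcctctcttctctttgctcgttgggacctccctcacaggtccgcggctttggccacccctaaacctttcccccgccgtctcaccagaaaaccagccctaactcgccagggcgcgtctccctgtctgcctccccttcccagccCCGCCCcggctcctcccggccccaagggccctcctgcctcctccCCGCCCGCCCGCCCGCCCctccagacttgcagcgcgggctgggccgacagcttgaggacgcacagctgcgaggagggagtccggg
Dennd5b, chr6:149101631-149101930, minus strand: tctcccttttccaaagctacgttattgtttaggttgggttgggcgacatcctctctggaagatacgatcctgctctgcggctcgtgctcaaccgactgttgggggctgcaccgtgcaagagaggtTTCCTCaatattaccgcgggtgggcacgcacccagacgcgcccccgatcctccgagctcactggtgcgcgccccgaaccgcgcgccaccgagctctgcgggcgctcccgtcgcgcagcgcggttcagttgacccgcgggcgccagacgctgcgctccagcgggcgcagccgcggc
Upb1, chr10:75406661-75406960, plus strand: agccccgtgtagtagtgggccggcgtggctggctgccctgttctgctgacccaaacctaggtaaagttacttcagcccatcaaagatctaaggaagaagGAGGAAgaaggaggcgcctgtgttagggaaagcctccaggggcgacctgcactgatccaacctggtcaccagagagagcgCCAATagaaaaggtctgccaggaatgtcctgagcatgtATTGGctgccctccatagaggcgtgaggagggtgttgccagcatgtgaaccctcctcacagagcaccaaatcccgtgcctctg
The B3gnt8 promoter held 5 GC boxes, read on the opposite strand as CCGCCC, of which 4 lay close to the start, each overlapping the next by 2 bases. The Dennd5b promoter held 1 PU.1 match, and the Upb1 promoter held 1 PU.1 match and 2 CCAAT boxes. Among 32851 promoters of the same length, 35.7% held a GC box, 28.3% a PU.1 match and 37.4% a CCAAT box, so each of these matches is common. None of the 3 windows held the letters of the EBF1 motif, the octamer, the C/EBP, RUNX or IRF motif or the TATA box, which were found in 0.904%, 1.74%, 10.8%, 16.8%, 3.44% and 13.6% of all promoters. The promoters also differed in base composition, with 23 CpG pairs and 70.3% GC in B3gnt8, 37 CpG pairs and 66.3% GC in Dennd5b and 8 CpG pairs and 56.7% GC in Upb1, against medians of 7 CpG pairs and 52.7% GC over all promoters.

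All levels below are log2 processed signals minus the median of the non-control spots of the same array, so 0 is the typical spot of that array and 1 unit is 2-fold. Levels of different genes come from different probes and are not compared with each other. A spot is called well above background by a flag of the scanner software, and the precision of a value is limited by the number of arrays. Fewer spots carried this flag on the arrays of 90Sr mice (14389 to 22524, median 17863) than on those of control mice (17809 to 24698, median 21049) among the 43020 non-control spots. The arrays came 4 to a slide on 14 slides, with each day on slides of its own and, at day 4, each group on a slide of its own. At day 4 slide and group cannot be told apart, while at each of the other days 1 slide held 2 control and 2 90Sr mice. Scan dates differed within days 7 and 30. Replicates 2 to 5 of the day 7 90Sr mice were scanned on another date than the other arrays of that day. The same held for replicates 3 to 6 of the day 30 90Sr mice. For these arrays scan date, slide and group cannot be told apart. The check on cell content found 20 of 20 B cell genes, 14 of 15 classical monocyte genes, 15 of 15 patrolling monocyte genes and 12 of 12 genes shared by both monocyte forms past the detection filter. Some arrays, 4 in all, are named below where a result rests on them: replicate 6 of the day 7 90Sr mice, replicates 1 and 2 of the day 25 90Sr mice and replicate 4 of the day 30 control mice. The last was lowest of its group in all 3 genes and in the B cell, monocyte and T cell lists, and had 19652 spots well above background against 22576 to 24698 in the other 5.

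B3gnt8 was lower in 90Sr than in control mice at every day. Its only probe (A_51_P170178) lies at mm9 chr7:26414013-26414072 on the plus strand and was well above background in 28 of 28 control arrays. At day 4 the control mice had levels of 2.29, 2.77, 2.93 and 3.16, and the 90Sr mice had -0.01, 0.18, 0.27 and 0.49. The groups lay far apart, and 1 of these 4 90Sr arrays was well above background. At day 7 the controls ranged from 2.86 to 3.53 with a median of 3.37, and the 90Sr mice from -1.14 to 1.91 with a median of 1.43. At day 9 the controls ranged from 2.28 to 3.04 (median 2.76) and the 90Sr mice from -0.77 to 0.71 (median -0.50). Day 7 was the day with the highest levels in 90Sr mice, 4 of the 6 being well above background, whereas at day 9 this was so for 0 of 6. At day 25 the controls ranged from 3.10 to 3.53 (median 3.40) and the 90Sr mice from -0.97 to 1.64 (median -0.23). At day 30 the controls ranged from 2.23 to 3.42 (median 2.94) and the 90Sr mice from -1.35 to 0.38 (median -0.46). At all 5 days the highest 90Sr mouse was below the lowest control mouse. In order of day, the group means differed by -2.55 (SE 0.21), -2.23 (SE 0.40), -3.02 (SE 0.26), -3.26 (SE 0.37) and -3.45 (SE 0.29) on the log2 scale, with a mean of -2.90 (SE 0.14). Where no 90Sr array was well above background only a bound is given, which for B3gnt8 was 3.98-fold lower at day 9 and 4.95-fold lower at day 30. Such a bound sets the control mean against, for each 90Sr array, the higher of the signal of the probe itself and the lowest signal well above background on that array. That lowest signal is taken over all probes and is not a limit particular to this probe. On replicate 2 of the day 7 90Sr mice B3gnt8 lacked the flag at 1.24, while Dennd5b carried it at 1.09. The bound holds no sampling error and was computed under the median scaling alone.

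Dennd5b was lower in 90Sr mice at every day on the probe that was used (A_55_P2081585, mm9 chr6:148936625-148936684, minus strand), again with 28 of 28 control arrays well above background. At day 4 its levels were 2.12, 2.23, 2.63 and 3.05 in control mice and -1.30, -0.94, -0.10 and -0.03 in 90Sr mice. All 4 treated mice were below the array median, and every control was well above it. At day 7 the controls ranged from 2.39 to 2.90 (median 2.57) and the 90Sr mice from -1.52 to 1.79 (median 0.90). At day 9 the ranges were 1.55 to 2.23 (median 1.99) and -1.27 to -0.07 (median -0.77). Day 7 was again the day of the highest levels after 90Sr, with 4 of 6 arrays well above background and 0 of 6 at day 9. At day 25 the controls ranged from 2.38 to 2.95 (median 2.78) and the 90Sr mice from -1.32 to 1.76 (median -0.90). At day 30 the ranges were 1.45 to 2.85 (median 2.53) and -1.18 to -0.07 (median -0.29). No 90Sr mouse reached a control mouse of its day. The differences were -3.10 (SE 0.32), -1.95 (SE 0.42), -2.72 (SE 0.23), -3.05 (SE 0.43) and -2.83 (SE 0.28) in order of day, with a mean of -2.73 (SE 0.15). The bounds, computed as for B3gnt8, were 2.37-fold lower at day 9 and 3.54-fold lower at day 30.

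Upb1 was lower at every day as well. Its probe (A_51_P183051) lies at mm9 chr10:74902842-74902901 on the plus strand and was well above background in all 28 control arrays and in 11 of the 28 90Sr arrays. At day 4 the control mice had levels of 1.4, 2.67, 2.76 and 3.27, and the 90Sr mice had -2.16, -1.82, -0.07 and 0.38. The lowest 2 of these 90Sr spots were marked non-uniform or not above background. At day 7 the controls ranged from 2.18 to 2.63 (median 2.27) and the 90Sr mice from -1.36 to 1.29 (median 0.68). At day 9 the ranges were 1.78 to 3.31 (median 2.32) and -1.14 to 1.25 (median 0.52). The groups did not overlap at these days. At day 25 the controls ranged from 2.83 to 3.56 (median 3.11) and the 90Sr mice from -1.10 to 2.88 (median 0.57). At day 30 the ranges were 1.08 to 3.52 (median 2.79) and -1.09 to 0.93 (median -0.20). Day 25 was the only day with an overlap, where 5 of 6 90Sr mice were below every control and replicate 1 was not. The differences were -3.44 (SE 0.60), -1.94 (SE 0.38), -2.05 (SE 0.35), -2.52 (SE 0.55) and -2.87 (SE 0.42) in order of day, with a mean of -2.56 (SE 0.21).

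The share of all 14580 tested genes called lower is given as background to these falls. Calls needed an unadjusted limma p under 0.001 and a change of at least 2-fold. The shares called lower were 22.9%, 16.0%, 17.9%, 26.4% and 21.2% in order of day. The shares called higher were 2.78%, 3.46%, 5.41%, 7.37% and 19.6%. The 3 genes were chosen on this contrast, so nothing is read from their place in it. The share of all genes whose groups do not overlap was not counted, so nothing is read from the lack of overlap either.

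**Figure D1:**
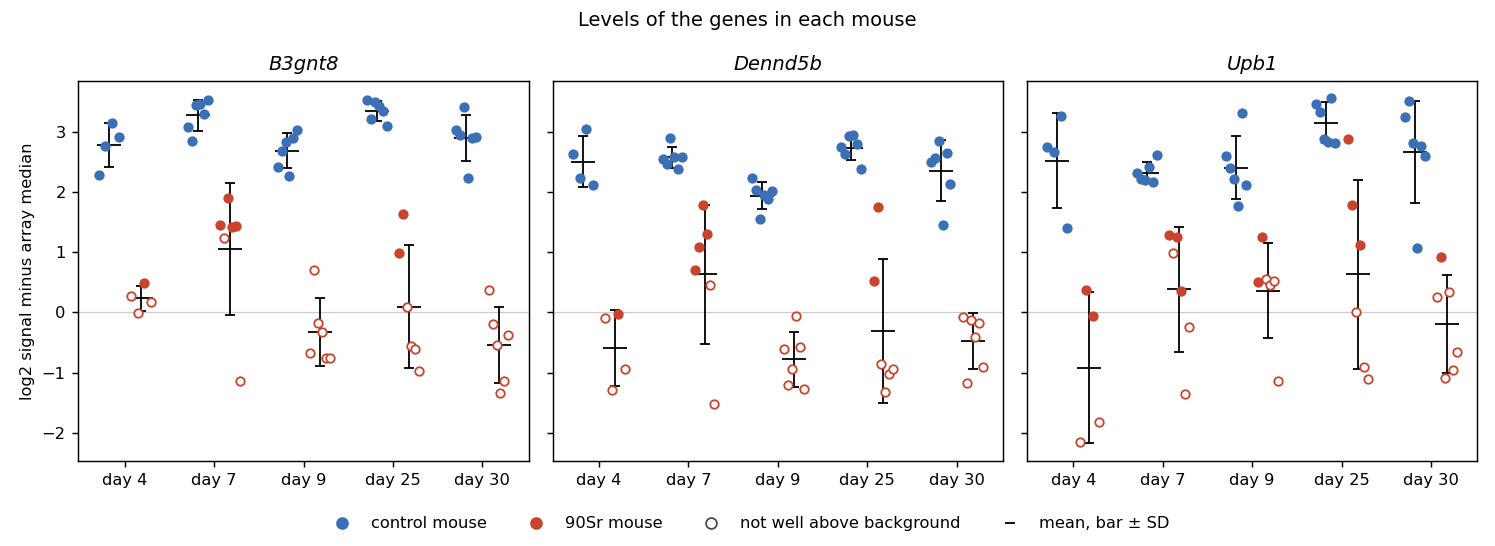
Level of B3gnt8, Dennd5b and Upb1 in every mouse by day after injection, as log2 signal minus the array median, with control and 90Sr mice in separate columns and bars at the group means. Every 90Sr mouse lies below every control mouse of its day except 1 of 6 in Upb1 at day 25. The genes were picked for their falls on these arrays and the share of all genes without overlap was not counted, so nothing is read from this separation. The 90Sr group of a day has the larger SD at 4 of 5 days for each gene.

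The SD within groups, pooled over the days, was 0.298 in control and 0.807 in 90Sr mice for B3gnt8, 0.325 and 0.864 for Dennd5b, and 0.575 and 1.12 for Upb1. By day the SD was larger in 90Sr than in control mice at 4 of 5 days for each gene, and smaller for B3gnt8 at day 4 (0.209 against 0.366), Dennd5b at day 30 (0.46 against 0.504) and Upb1 at day 30 (0.819 against 0.851). In the order of the 10 group means, the 5 control groups came first for each gene with the day 25 controls highest, at 3.36 ± 0.17 (SD, n = 6) for B3gnt8, 2.74 ± 0.21 for Dennd5b and 3.15 ± 0.34 for Upb1. Neighbors in this order differed by less than the larger SD of the pair everywhere but at the step from the lowest control group to the highest 90Sr group, which was 1.64 for B3gnt8, 1.31 for Dennd5b and 1.69 for Upb1. The highest 90Sr group was day 7 for B3gnt8 (1.05 ± 1.1) and Dennd5b (0.63 ± 1.16) and day 25 for Upb1 (0.63 ± 1.58), and the lowest was day 30, day 9 and day 4. Since no 90Sr array of days 9 and 30 was well above background for B3gnt8 or Dennd5b, the places of these groups among the lowest are not measured. The mice were kept singly after the injection. The p-values given below take the mouse as the unit and, unless stated, do not allow for the slide. Each slide held 1 day, and 4 of the 14 slides held both groups. A difference between days or groups can therefore include a difference between slides.

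Within the single slides that held both groups, the falls kept their direction, with 2 mice against 2 and no test. For B3gnt8 the differences were -2.82, -2.95, -1.92 and -2.82 at days 7, 9, 25 and 30, for Dennd5b -2.92, -2.86, -1.45 and -3.02, and for Upb1 -1.75, -1.84, -0.86 and -2.09. At day 25, where the differences were smallest, the 90Sr mice on the mixed slide were replicates 1 and 2. Replicates 3 to 6 were on a slide without controls, so slide and mouse cannot be told apart. Replicates 1 and 2 were the highest 2 of their group in all 3 genes. They also had the most spots well above background in that group, 19113 and 19119 with a lowest value of 14739. Their shared monocyte scores, the mean log2 levels of that list, were also the highest of the group, at 4.91 and 4.88. Replicate 6 of the day 7 90Sr mice was lowest of its group in B3gnt8 (-1.14), in Dennd5b (-1.52) and in the B cell score (3.02, others 4.06 to 4.76). Its B3gnt8 and Dennd5b spots were marked non-uniform or not above background. With these 3 arrays and replicate 4 of the day 30 controls left out, the mean differences were -2.96, -2.83 and -2.77 for B3gnt8, Dennd5b and Upb1. Leaving them out removes every day 25 90Sr array that shared a slide with controls.

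Dennd5b had 3 probes on the array, and only the probe used above was clearly lower in 90Sr mice. The probe at mm9 chr6:148937450-148937509 (A_55_P2146050) was well above background on 56 of 56 arrays and differed between the groups by -0.26, -0.08, -0.04, -0.26 and -0.12 in order of day, where the used probe differed by -3.10 to -1.95. It differed by 1.5-fold from its median on only 1.8% of the arrays and so failed the filter on variation. At day 4 its levels lay between 7.73 and 7.98 in control mice and between 7.56 and 7.63 in 90Sr mice, and at day 30 between 7.70 and 8.18 and between 7.51 and 8.16. The third probe, at mm9 chr6:148984928-148984987 (A_52_P561161), was well above background on 0 of 56 arrays and gives no measure of change. The bright probe shared stretches of 20 bases with 4 probes that the array assigns to 4 other genes, whereas the other probes of the 3 genes shared none with any probe. The stretch found most often, in 2 other probes and in 10 of 32851 promoters, stands at the first base of the probe and is printed in full because the 2 probes disagree:
A_55_P2146050, bases 1 to 20: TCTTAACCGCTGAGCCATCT
It reads as the opposite strand of the start of the B2 short interspersed repeat, a sequence found in many mouse transcripts, and what part of the signal of this probe came from other transcripts was not tested. The fall of Dennd5b therefore rests on 1 of its 3 probes.

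**Figure D2:**
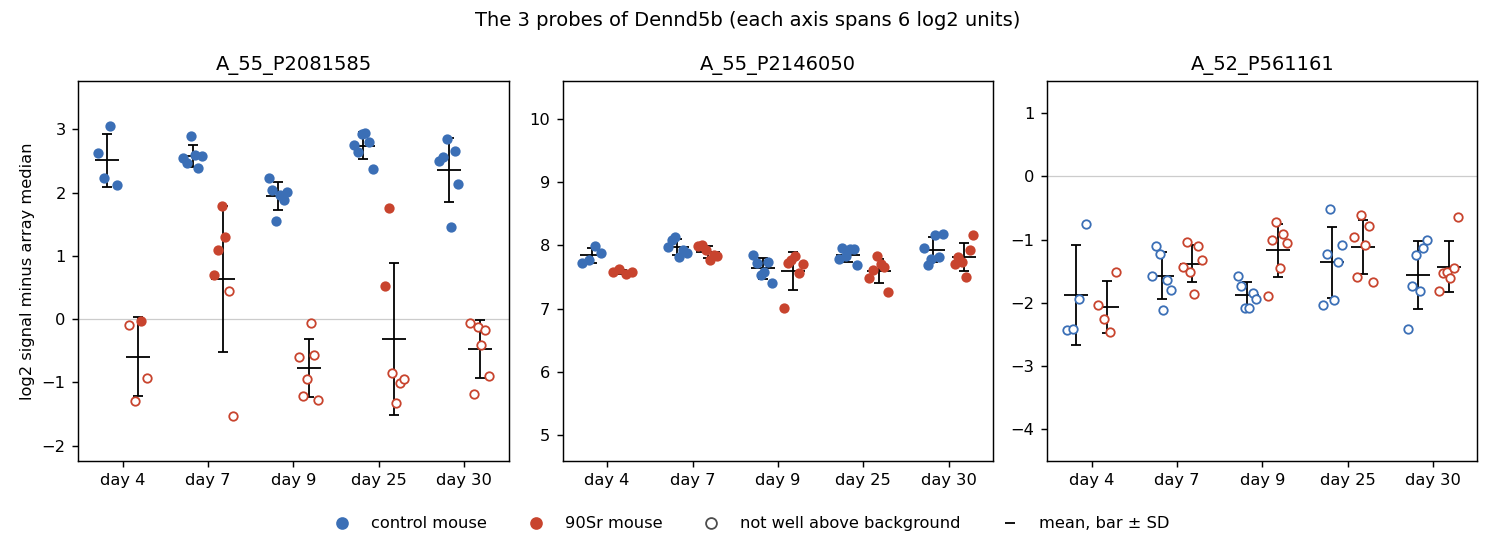
Level of the 3 Dennd5b probes in every mouse by day, as log2 signal minus the array median, with control and 90Sr mice in separate columns. The probe used falls by 1.95 to 3.10 units, the bright probe differs by at most 0.26 units, and the dim probe is not well above background on any array.

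A test between control days is another contrast than the one that chose the genes, although the control levels entered both. In the 28 control arrays B3gnt8 differed between the 5 days (limma F test, adjusted p = 0.00761), as did Dennd5b (adjusted p = 0.00981), and for Upb1 the test did not pass (adjusted p = 0.134). B3gnt8 was lowest at day 9 (2.69 ± 0.29) and highest at day 25 (3.36 ± 0.17), and Dennd5b was lowest at day 9 (1.95 ± 0.23) and highest at day 25 (2.74 ± 0.21). A difference of this kind was the rule, since 62.0% of the 14580 genes passed the same test, and day and slide cannot be told apart here. For B3gnt8 the test no longer passed with scaling to a reference array (adjusted p = 0.0628), the authors' values (0.0603) or normexp background correction (0.569), and for Dennd5b with normexp (0.462) or the bright probe (0.0514). Without replicate 4 of the day 30 controls the adjusted p for Upb1 was 0.0203.

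The 3 genes were then related to genes of B cells and monocytes across arrays. The score of a list is the mean log2 level of its detected genes on an array, the means of each day were removed, and control and 90Sr arrays were taken apart because the groups lie apart. In all, 78 relations were computed with two-sided tests of 100000 permutations within days and adjusted over the 78, and 35 passed at an adjusted p under 0.05. Not all of these 35 are named below. The lowest raw p, 1e-05, is the smallest these permutations can give. The scores themselves differed between 90Sr and control mice by -2.0 log2 units for the 20 B cell genes, -1.18 for shared, -0.75 for classical and -0.65 for patrolling monocyte genes, -0.52 for T cells and 0.86 for reticulocytes, as means over the 5 days. Their part in the falls of the 3 genes was not tested.

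B3gnt8 followed the B cell score in both kinds of mice. In control arrays r was 0.781 (permutation p = 5e-05, adjusted 0.00065) with a rho of 0.716 (p = 8e-05, adjusted 0.00125), and r was 0.635 without the 2 arrays farthest from the median score. In 90Sr arrays r was 0.838 (p = 4e-05, adjusted 0.000624) with a rho of 0.748 (p = 1e-04, adjusted 0.0013), and 0.827 without 2 arrays. Mice with more B cell signal had more B3gnt8 signal in both kinds of mice. In 90Sr mice, however, the B3gnt8 probe was well above background on few arrays. These were 1 of 4 at day 4, 4 of 6 at day 7, 2 of 6 at day 25 and 0 of 6 at days 9 and 30. The 90Sr values of r for B3gnt8 therefore rest largely on spots not well above background. With the shared monocyte score, r was 0.44 in control arrays (p = 0.0676, adjusted 0.108; rho 0.336, p = 0.107, adjusted 0.178) and 0.762 in 90Sr arrays (p = 1e-05, adjusted 0.00039; rho 0.744, p = 4e-05, adjusted 0.000975). The value in control arrays fell to 0.163 without replicate 4 of day 30, and that in 90Sr arrays was 0.676 without the 2 farthest arrays. The latter no longer passed without the 4 arrays that stood apart (0.592, permutation p adjusted to 0.062) or with slide as a block (0.687, adjusted to 0.165). With any 1 array left out, r of B3gnt8 with the patrolling score was 0.623 to 0.746 in 90Sr and 0.043 to 0.432 in control arrays. With the classical score it was 0.533 to 0.644 and 0.012 to 0.458. Whether the control and 90Sr values of r differ was not tested.

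Dennd5b also followed the B cell score on the probe used, though not on the bright probe, which was well above background on 56 of 56 arrays and gave an r of -0.207 in control and 0.019 in 90Sr arrays (permutation p adjusted to 0.571 and 0.949). On the probe used, in control arrays r was 0.787 (permutation p = 0.00013, adjusted 0.00127; rho 0.659, p = 0.00058, adjusted 0.00503) and 0.672 without 2 arrays. In 90Sr arrays it was 0.789 (p = 0.00023, adjusted 0.00199; rho 0.729, p = 0.00028, adjusted 0.00273) and 0.755 without 2 arrays. This second value rested in part on the arrays that stood apart, since it was 0.482 (adjusted p = 0.122) without them. The 90Sr values of Dennd5b also rest largely on spots not well above background. The probe used was well above it on 1 of 4 90Sr arrays at day 4, 4 of 6 at day 7, 2 of 6 at day 25 and 0 of 6 at days 9 and 30. With the shared monocyte score r was 0.604 in control arrays (p = 0.018, adjusted 0.0467; rho 0.414, p = 0.053, adjusted 0.122) and 0.51 in 90Sr arrays (p = 0.0284, adjusted 0.0605; rho 0.481, p = 0.0226, adjusted 0.063). The relation in control arrays rested on the 2 arrays farthest from the median, without which r was 0.164, and on replicate 4 of day 30, without which it was 0.329. Dennd5b also went with the 75th percentile of the array, with r of 0.70 in control (permutation p = 0.00255, adjusted 0.0142) and 0.69 in 90Sr arrays (permutation p = 3e-05, adjusted 0.000585). With that percentile and the number of spots well above background regressed out of both measures, its r with the B cell score was 0.553 in control (permutation p adjusted to 0.0285) and 0.598 in 90Sr arrays (adjusted to 0.0223).

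Upb1 followed the monocyte scores. In control arrays its r with the shared monocyte score was 0.90 (permutation p = 2e-05, adjusted 0.00052; rho 0.806, p = 2e-05, adjusted 0.000975), and 0.756 without 2 arrays. It was 0.852 with the patrolling score (p = 0.00012, adjusted 0.00127; rho 0.708, p = 0.00028, adjusted 0.00273) and 0.775 with the classical score (p = 1e-05, adjusted 0.00039; rho 0.738, p = 3e-05, adjusted 0.000975). In 90Sr arrays the 3 values were 0.576 (p = 0.00603, adjusted 0.0248; rho 0.514, p = 0.0131, adjusted 0.046), 0.59 (p = 0.00587, adjusted 0.0248; rho 0.579, p = 0.00472, adjusted 0.023) and 0.565 (p = 0.00428, adjusted 0.0209; rho 0.572, p = 0.0032, adjusted 0.0188). The first of these was 0.413 without 2 arrays and 0.389 (adjusted p = 0.251) without the arrays that stood apart, and so rests on few mice. Upb1 was well above background on 2 of 4 90Sr arrays at day 4. At days 7, 9, 25 and 30 it was so on 3, 2, 3 and 1 of 6. With the B cell score Upb1 had an r of 0.63 in control arrays (p = 0.00941, adjusted 0.0334; rho 0.461, p = 0.0259, adjusted 0.0675) that fell to 0.273 without 2 arrays and to 0.355 without replicate 4 of day 30. In 90Sr arrays r was 0.425 (p = 0.0665, adjusted 0.108; rho 0.375, p = 0.0919, adjusted 0.163).

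**Figure D3:**
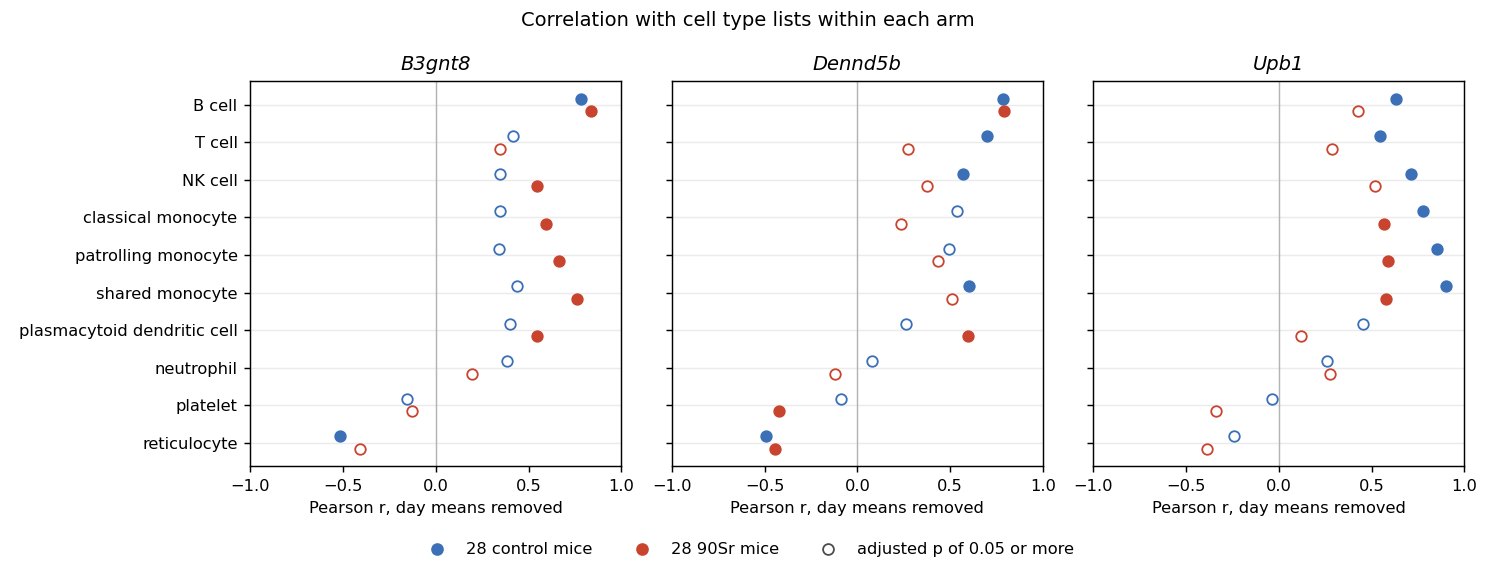
Pearson r of each gene with the score of 10 cell type lists, day means removed, in the 28 control and the 28 90Sr arrays, with filled symbols at an adjusted permutation p under 0.05. B3gnt8 and Dennd5b reach 0.781 to 0.838 with B cells in both kinds of mice, and Upb1 reaches 0.90 with shared monocyte genes in control mice.

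The B cell and shared monocyte scores moved together across arrays, with r of 0.684 in control and 0.674 in 90Sr mice, so each was held constant in turn (12 relations, chosen after the data were seen). With the monocyte score held, B3gnt8 kept its relation with the B cell score, with a partial r of 0.733 in control (permutation p = 1e-05, adjusted 0.00012) and 0.679 in 90Sr arrays (p = 0.0007, adjusted 0.00168), and so did Dennd5b with 0.643 (p = 0.00053, adjusted 0.00168) and 0.701 (p = 0.00056, adjusted 0.00168). For Upb1 the same values were 0.045 (permutation p = 0.853, adjusted 0.853) and 0.061 (p = 0.771, adjusted 0.853). With the B cell score held, Upb1 had a partial r of 0.828 with the monocyte score in control arrays (permutation p = 4e-05, adjusted 0.00024) and 0.434 in 90Sr arrays, which did not pass (p = 0.0352, adjusted 0.0603). Dennd5b then had 0.145 (permutation p = 0.493, adjusted 0.657) and -0.048 (p = 0.838, adjusted 0.853). B3gnt8 had -0.207 in control arrays (permutation p = 0.317, adjusted 0.476) and 0.489 in 90Sr arrays, which passed (p = 0.0202, adjusted 0.0404). The 6 partial values that passed were 0.664, 0.549, 0.623, 0.594, 0.735 and 0.421 in the same order without the 2 farthest arrays. Their partial rho was 0.794, 0.641, 0.62, 0.701, 0.813 and 0.446 (permutation p adjusted to 6e-05, 0.00312, 0.00312, 0.00208, 6e-05 and 0.0586), so that the last did not pass by rank. The difference between 2 of these values was not tested.

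**Figure D4:**
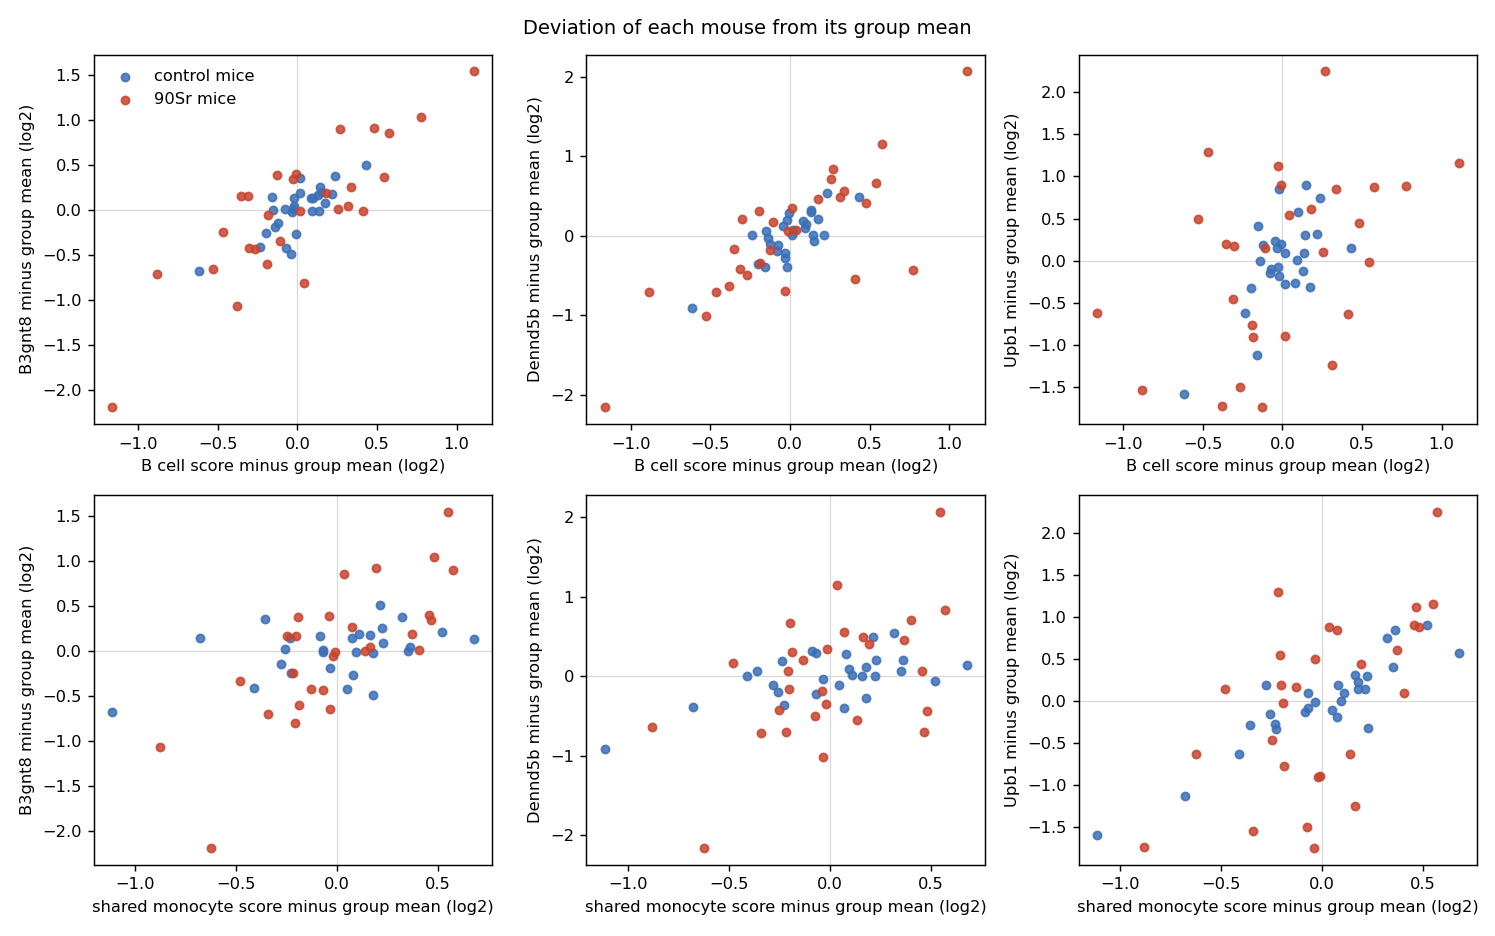
Each mouse's deviation from its group mean in B3gnt8, Dennd5b and Upb1 (vertical, log2) against its deviation in the B cell score (top) or the shared monocyte score (bottom), with control and 90Sr mice in different colors. B3gnt8 and Dennd5b follow the B cell score along a line in both kinds of mice, and Upb1 follows the monocyte score most closely in control mice.

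The r of single genes of the lists is given as a description. Over the 20 B cell genes, the median r with B3gnt8 was 0.653 in control and 0.782 in 90Sr arrays, and that with Dennd5b was 0.647 and 0.724. In each case all but 1 or 2 genes had a positive r. Pax5, the factor that keeps B cells in their lineage, was negative throughout, with an r with B3gnt8 of -0.487 and -0.612, and its probe was dim (a mean level of 0.96 in control mice) and was not called at any day. Cd22 was brighter, at a mean of 4.60 in control and 4.34 in 90Sr mice, and did not vary enough to be tested. Its r was 0.313 and 0.05 with B3gnt8 and 0.083 and -0.048 with Dennd5b in control and 90Sr arrays. Over the 12 shared monocyte genes the median r with Upb1 was 0.796 in control arrays, where it ranged from 0.526 to 0.880, and 0.447 in 90Sr arrays. The points share arrays, and list genes are not independent of each other.

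The genes most like each member were sought among those past the detection filter, over 56 arrays with group means removed. For B3gnt8 these were Tnfrsf13c, the receptor for the B cell survival factor BAFF and itself on the B cell list (r = 0.867), a probe without a gene name (A_55_P2176753, r = 0.86), Tnfrsf13b, the BAFF family receptor TACI (0.86), Icosl, a T cell costimulatory ligand (0.857), and AF138742 (0.856). In this order the median of the B cell list would stand at place 122, with 0.755, and Dennd5b stood at place 475 with 0.695 and Upb1 at 3221 with 0.487. For Dennd5b the closest were Cobll1 (0.822), Cd40, the costimulatory receptor of B cells and other antigen presenting cells (0.812), Strbp (0.806), H2-Eb2, a class II histocompatibility gene (0.805), and Tnfrsf13b (0.804). For Upb1 they were Ppfia4 (0.774), Cd209a, a lectin of monocytes and dendritic cells (0.755), Tep1 (0.755), Ly6c1, which is on the classical monocyte list (0.744), and the transcript TC1593528 (0.743). Ly6c2, also on that list, had no entry on the array, and whether the Ly6c1 probe reads it was not tested. Only Tnfrsf13b stood among the closest 5 of more than 1 member. These values pool both arms, so the 90Sr arrays weigh more where their SD is larger. Taken apart, r of B3gnt8 with Tnfrsf13b was 0.685 in control and 0.898 in 90Sr arrays. For Upb1 with Cd209a it was 0.924 and 0.711. The values of Dennd5b are those of the probe used above. Over the 10 group means, which are dominated by the difference between control and 90Sr mice, the closest were Coq2, Krr1 and Cd79b (0.998 each) for B3gnt8, Arpc5l, Mical1 and Tnfrsf13b (0.999, 0.998 and 0.997) for Dennd5b and Gm14548, Ctsa and Usp48 (0.994, 0.992 and 0.992) for Upb1.

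Part of the pathway of B3gnt8 was called lower. Of 31 other genes that build, branch or cap N-acetyllactosamine chains, 16 were tested, 10 were called lower at 1 or more days and 6 at all 5 days, against 34.3% and 8.34% of all tested genes. By limma none of the 16 was called higher at any day, with 7 gene and day pairs higher at an unadjusted p under 0.05. The median over its genes of the mean change over the days was -1.13, and the same median over all tested genes was 0.21. B3gnt2, the partner of B3gnt8, was called lower at day 4 (-1.37, SE 0.25, limma adjusted p = 0.00118), and its changes at the other days, -0.71 to -1.17, did not pass. B3gnt5, which starts lacto-series chains on glycolipids, fell by 1.72 to 2.66 log2 units (limma adjusted p of 7.4e-05 to 0.000285). St6gal1, which caps the chains with sialic acid, fell by 1.53 to 2.41 units (adjusted p of 5.7e-05 to 0.000238). The others called lower at all days were Mgat1, which starts complex N-glycans (mean -1.73), Fut7, which adds fucose in selectin ligands (-1.70), the galactosyltransferase B4galt5 (-1.57) and the Golgi mannosidase Man2a1 (-1.26). Over the 5 days the list had 39 calls lower and 0 higher. With arrays scaled on their 75th percentile there were 26 calls lower and 5 higher, and with quantile normalization 26 and 1.

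Among 29 genes of DENN domain proteins and Rab39, 18 were tested and 13 were called lower at 1 or more days (34.3% of all tested genes). Of the 18, 4 were called lower at all 5 days (8.34% of all tested genes) and 2 were called higher at 1 day (28.4% of all tested genes at 1 or more days), with a median change of -1.02. Dennd5a, the closest relative of Dennd5b, did not vary enough to be tested, and Rab39 did not pass the detection filter. Those lower at all days were C9orf72 (3110043O21Rik on the array, mean -1.79) and its partner Smcr8 (-1.45), which act together in autophagy, Avl9 (-1.4) and Dennd1c (-1.27). C9orf72 fell by 1.51 to 2.31 log2 units (limma adjusted p of 0.000197 to 0.000285). Madd, which acts on Rab3, and Dennd4a, which acts on Rab10, were called higher at day 30, by 1.12 (SE 0.28, adjusted p = 0.00213) and 1.42 (SE 0.30, adjusted p = 0.00073). The list had 41 calls lower and 2 higher, which became 16 and 7 with scaling on the 75th percentile and 25 and 1 with quantile normalization.

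The pathway of Upb1 had calls in both directions. Of 33 genes of pyrimidine breakdown, salvage and synthesis, 22 were tested, 13 were called lower and 5 higher at 1 or more days, against 34.3% and 28.4% of all tested genes, and the median change was -1.0. The 2 genes called lower at all 5 days are a share (9.1%) near that of all tested genes (8.34%). The enzymes just before Upb1 gave little to compare, since Dpyd did not pass the detection filter and Dpys (mean 0.35) was not called at any day. Ctps2, which makes CTP (mean -1.26), and Nt5c, a nucleotidase (-1.24), were called lower at all 5 days. Aldh6a1, which takes breakdown products of thymine and valine further (-1.45), and Umps, which makes UMP (-1.27), were the other large falls, and were called at 4 and 3 days. Agxt2 (1.04), Nt5c3 (0.92) and Abat (0.82) were the largest rises, with calls at 1, 2 and 1 days. Agxt2 and Abat, which act on beta-amino acids such as the product of Upb1, were both called at day 7, at 1.38 (SE 0.23, limma adjusted p = 0.000328) and 1.1 (SE 0.20, adjusted p = 0.000476). The list had 41 calls lower and 6 higher, and this split turned to 9 lower and 16 higher with scaling on the 75th percentile and was 18 and 9 with quantile normalization. These scalings moved the median change of all tested genes, here taken within each day and then averaged over the days, from 0.01 to 0.63 and 0.16. None of the pathway genes named here that had a value under them changed sign, and Nt5c3 had none with quantile normalization. Scaling to a reference array moved that median to -0.18.

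**Figure D5:**
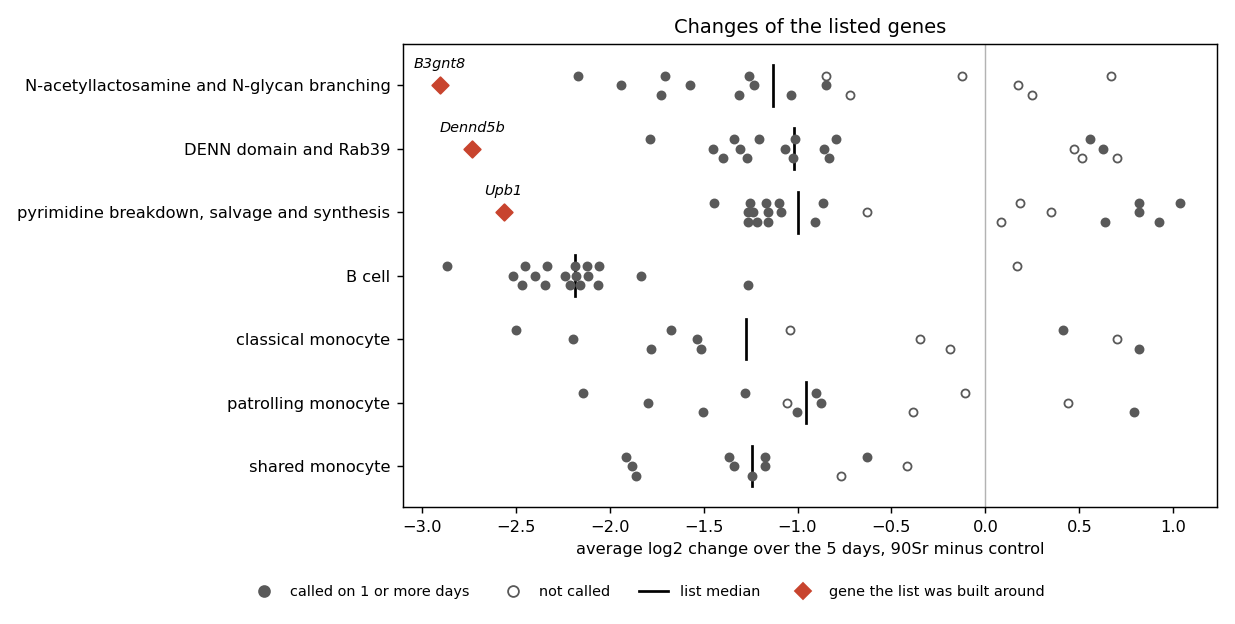
Change of each tested gene of 7 lists, as the mean log2 difference between 90Sr and control mice over the 5 days, with the list median as a bar, genes called on 1 or more days filled, and B3gnt8, Dennd5b and Upb1 as diamonds beside the list built around each. The diamonds stand at -2.90, -2.73 and -2.56, the falls for which the 3 genes were chosen, and the B cell genes have a median of -2.19.

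Of the B cell genes, 19 were tested, all but Cd22, which did not vary enough. Of the 19, 17 were called lower at all 5 days and 0 higher at any day by limma (2 gene and day pairs were higher at an unadjusted p under 0.05). The median change of the 19 was -2.19. The 4 named here, picked by the signal of their probes in control mice, which does not order the genes by their RNA, were Cd79b and Cd79a, the signal chains of the B cell receptor (mean -2.47 and -2.16), Fcmr, the IgM receptor (-2.34), and Ms4a1, which is CD20 (-2.33). The monocyte lists had fewer calls. Of the shared genes 11 were tested and 3 were lower at all days, among them Ctss, a lysosomal protease (-1.86), while Lgals3 (-1.24) was called at 3 days, Lyz2 (-0.42) was not called and Lyz1 was not tested. Of 12 classical genes tested, 4 were lower at all days, among them Ifi27l2a (-1.67) and Ly6c1 (-1.51), whereas Thbs1 (0.42), also made by platelets, was called higher at day 30 and F10 (-0.19), whose sign turned with the scaling, was not called. Of 12 patrolling genes tested, 2 were lower at all days, Cx3cr1 (-2.14) and Pou2f2 (-1.80). Pou2f2 had the highest r of this list with B3gnt8, 0.603 in control and 0.811 in 90Sr arrays. What part of a monocyte list's signal came from other cell types was not tested. Of those picked by signal Nr4a1, the factor patrolling monocytes need (-1.28), was called lower at 4 days and Spn (-1.0) at 2, Cd36 (0.79), also a platelet gene, was called higher at 1 day and Eno3 was not tested. Over the 5 days the calls were 32 lower and 0 higher for the shared list (limma, with 0 higher also at an unadjusted p under 0.05), 26 and 2 for the classical and 22 and 1 for the patrolling list. The shares lower at all days were 89% of tested B cell, 27% of shared, 33% of classical and 17% of patrolling genes. Over all tested genes that share was 8.34%. At 1 or more days 34.3% of all tested genes were called lower and 28.4% higher.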

How the data were processed

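Blood RNA of 56 mice was measured on one-color Agilent 4x44K v2 mouse arrays, 1 array per mouse. The authors deposited, for every spot, the processed signal as an intensity, which Feature Extraction (version 11.5.1.1 per the file headers, 10.7 per the submitters' processing notes) had corrected for background and spatial trends within the array, without scaling between arrays, together with raw mean and background intensities and other columns of quality flags. The authors also deposited a table of processed log2 values for the same arrays, used as an alternative. Probe positions are on mm9.

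Control spots were left out, log2 intensities were averaged per probe (39429 probes of 30199 genes) and the median of the non-control spots of each array was subtracted. A detection filter removed probes with a quality mark, for a non-uniform spot or one not above its background, on 25% of arrays or more and left 23317 probes of 18796 genes. A variation filter then required a deviation of 1.5-fold from the probe median on at least 20% of arrays and left 17095 probes of 14580 genes. Of several probes for a gene, the one with the highest mean among those passing was taken. Each day was fitted with limma 3.58.1 in R 4.3.3 (lmFit and eBayes), control against 90Sr mice. Calls required an unadjusted p below 0.001 and a 2-fold change, the threshold of the study's methods, and adjusted p-values (Benjamini-Hochberg) are over all 14580 genes. Control days were compared with an F test over the 28 control arrays. Correlations were computed with Python 3.11, numpy 2.4.6 and scipy 1.17.1.

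The 3 genes, the cell type and pathway lists and the tests were chosen with earlier results of these data known. Named genes are the 3 members, the direct partners, pathway genes called in 1 direction at all 5 days, the 3 largest mean changes of each direction among called pathway genes, the 4 B cell and monocyte genes of each list with the highest level in control mice, and the closest 5 and 3 genes by correlation. On simulated data with 200 of 14580 genes changed, 88.5%, 94.5%, 97%, 96.5% and 97.5% were recovered in order of day, with 13, 9, 10, 10 and 8 false calls, and 94.5% between control days with 8. Each changed gene was moved by the same amount, which was more than the 2-fold a call needs. The noise was normal and independent, with the same SD in both arms and no slide effect. These figures check the code and do not measure the error of the calls made on the real arrays. Alternatives were other scalings, normexp background correction with an offset of 50 (statmod 1.5.0 served random blocks), other filters, the authors' values, slide and replicate blocks, other probes, and each array left out in turn. Promoters came from RefSeq on GRCm38.p6. Other lists used for cell content were T cell, NK cell, neutrophil, plasmacytoid dendritic cell, platelet and reticulocyte genes.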

Additional observations from a re-analysis of the deposited data

Results flagged for a closer look

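In 30 groups of 4 or 6 mice (3 genes and 10 groups), 2 held a mouse set apart from the rest of its group by a Dixon gap test at the 95% level, which chance gives in about 1 of 20 groups. B3gnt8 in replicate 6 of the day 7 90Sr mice was at -1.14, with the nearest of the other 5 at 1.24, a gap of 0.779 of the range of the group. The same array was lowest of its group in Dennd5b (-1.52) and in the B cell score (3.02), while its number of spots well above background (16936) was within that of the others (16752 to 20131). Upb1 in replicate 6 of the day 9 90Sr mice was at -1.14, with the nearest at 0.46, a gap of 0.669 of the range. Both spots set apart carried a quality mark, for a non-uniform spot or one not above its background. Neither was well above background.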

How the results depend on the processing

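The mean differences of the 3 genes kept their sign under every setting tried and with any 1 array left out (-2.96 to -2.81 for B3gnt8, -2.81 to -2.64 for Dennd5b and -2.65 to -2.48 for Upb1). With normexp background correction, which left array medians of 6.24 to 10.51 log2 units, they were -0.73, -0.24 and -0.59, Dennd5b was higher in 90Sr mice at days 25 (0.75) and 30 (0.70), the tests between control days gave adjusted p of 0.569 for B3gnt8 and 0.462 for Dennd5b, limma called 2 genes and days lower in the N-acetyllactosamine list and 0 in the DENN and pyrimidine lists (19 and 16 at an unadjusted p under 0.05), with 0 higher in both (8 and 5), and r with the shared monocyte list was 0.925 for B3gnt8 in control arrays and 0.926 for Dennd5b and 0.406 for Upb1 in 90Sr arrays. The cause was not tested. With slide as a fixed block, over days 7 to 30, the mean of Upb1 was -1.63, and pathway calls dropped to 6, 7 and 2 lower in the N-acetyllactosamine, DENN and pyrimidine lists and 0 higher in the last 2 (2 and 11 at an unadjusted p under 0.05). As a random block it left 25 and 26 calls lower in the first 2 lists and 1 higher in the DENN list. The mixed slides alone gave 3, 1 and 2 lower, with 1 higher in the DENN and 0 in the pyrimidine list (7 at an unadjusted p under 0.05). These settings have fewer arrays. A fixed slide block was not run between control days, since each slide holds 1 day.

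Another Dennd5b probe changes its result. Without the variation filter the bright probe represents the gene, its mean difference was -0.15, the test between control days gave 0.0514, and r was -0.207 and 0.019 with the B cell list in control and 90Sr arrays and -0.088 with the shared monocyte list in control arrays. With probes kept only if well above background on 75% of arrays the last 3 were -0.187, 0.040 and -0.159, B3gnt8 and Upb1 had no value, and the DENN list had 27 calls lower. The dim probe was higher in 90Sr mice at days 7 (0.19), 9 (0.70), 25 (0.24) and 30 (0.13), at background.

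Scaling on the 75th percentile gave 16 calls lower and 7 higher in the DENN list, 9 and 16 in the pyrimidine list and 5 higher in the N-acetyllactosamine list, and quantile normalization gave 25 and 1, 18 lower, and 1 higher. Scaling to the reference array gave 1 higher in the DENN and 3 in the pyrimidine list, and the authors' values 0 (11 at an unadjusted p under 0.05) and 3. For B3gnt8 between control days these last 2 gave adjusted p of 0.0628 and 0.0603. Over all genes the share of calls that were lower was 73.0%, against 28.4% on the 75th percentile, 55.1% with quantile normalization, 81.3% to the reference array, 81.7% with the authors' values and 12.5% with normexp, and genes past the test between control days numbered 9046, or 54 with normexp.

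The relations of B3gnt8 with the B cell list and of Upb1 with the shared monocyte list in control arrays passed under all settings that gave a value. For Dennd5b with the shared monocyte list in control arrays (0.604), r no longer passed at 0.273 (75th percentile), 0.435 (quantile), 0.543 (reference array), 0.266 (array-wide measures regressed out), 0.631 (slide block) and 0.164 (without the 2 farthest arrays). In 90Sr arrays (0.51) it passed at 0.583 (quantile), 0.564 (reference array) and 0.555 (list median). For Upb1 with the B cell list in control arrays (0.63), r no longer passed at 0.242 (75th percentile), 0.333 (quantile), 0.358 (array-wide measures regressed out), 0.669 (slide block) and 0.273 (without 2). For Upb1 with the shared monocyte list in 90Sr arrays (0.576), it did not pass at 0.494 (list median), 0.353 (slide block) and 0.413 (without 2). For B3gnt8 with that list it did not pass at 0.687 (slide block) in 90Sr arrays, and in control arrays (0.44) it passed at 0.547 (authors' values) and 0.496 (day means kept). Without the 4 arrays that stood apart, an alternative chosen after seeing the data, r was 0.592 for B3gnt8 with shared monocyte genes, 0.482 for Dennd5b with B cell genes and 0.389 for Upb1 with shared monocyte genes in 90Sr arrays, and 0.329 for Dennd5b with shared monocyte and 0.355 for Upb1 with B cell genes in control arrays, none passing, Upb1 differed between control days (0.0203), and the DENN list had 1 call higher.

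Replicate numbers recur in the groups of a day. The 28 pairs of equal number correlated at -0.277 to 0.319, 8 of them above 0.1. All were positive at day 4 (0.068 to 0.274) and at day 30 (0.011 to 0.319). Pairs of unequal number were not compared, so whether the numbers pair the mice was not tested. The main results treat the mice as unpaired. With replicate as a block, limma called 0 genes and days higher in the DENN list (12 at an unadjusted p under 0.05) and 1 in the N-acetyllactosamine list, r of B3gnt8 with the shared monocyte list was 0.56 in control arrays and passed, and that of Upb1 was 0.159 in 90Sr arrays and did not.

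With 1 array left out, calls higher ranged from 1 to 4 in the DENN list and 0 to 1 in the N-acetyllactosamine list, 4 and 1 without replicate 1 of the day 30 90Sr mice and 1 in the DENN list without any other day 30 array but control replicate 1. The adjusted p of Upb1 between control days ranged from 0.0203 to 0.263. Of the relations, r of Dennd5b with shared monocyte genes ranged from 0.329 to 0.647 in control and 0.393 to 0.593 in 90Sr arrays, r of Upb1 with B cell genes in control arrays from 0.355 to 0.685, and r of Upb1 with shared monocyte genes in 90Sr arrays from 0.492 to 0.645. The lowest control values come without replicate 4 of the day 30 controls. The first relation also no longer passed, at r of 0.556 to 0.605, without control replicate 1, 3 or 4 of day 4, 5 of day 7, 4 or 6 of day 25, or 2, 3 or 6 of day 30, and in 90Sr arrays passed without replicate 1 or 2 of day 9 or 2 of day 30. The relation of Upb1 with B cell genes no longer passed without control replicate 3 or 4 of day 4 or 4 or 5 of day 9 (0.596 to 0.627), and the last passed with all arrays but not without replicate 1 or 6 of the day 25 90Sr mice. Signal over background limits the 3 genes in 90Sr mice, where B3gnt8 and Dennd5b were well above it on 7 and Upb1 on 11 of 28 arrays.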

Other observations

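The 3 genes were also set against the other cell types of the blood, in the same family of 78 relations with permutation tests. In control arrays Dennd5b followed the T cell score (r = 0.70, p = 0.00102, adjusted 0.00715, rho 0.604, p = 0.00186, adjusted 0.0132, and 0.753 without 2 arrays) and Upb1 the NK cell score (r = 0.714, p = 0.00101, adjusted 0.00715, rho 0.528, p = 0.00647, adjusted 0.0297), though the latter was 0.399 without 2 arrays. In 90Sr arrays Dennd5b and Upb1 had an r of 0.271 and 0.516 with these scores, at adjusted p of 0.263 and 0.0705 (raw p 0.223 and 0.0343, rho 0.261 and 0.465 with p of 0.193 and 0.0359, adjusted 0.269 and 0.0902). In 90Sr arrays Dennd5b went with the plasmacytoid dendritic cell score (r = 0.597, p = 0.00567, adjusted 0.0248, rho 0.553, p = 0.0104, adjusted 0.0407, and 0.586 without 2 arrays). In this score 2 of 8 genes, Ly6d (r = 0.79) and Irf8 (0.734), both also known from B cells, stood apart from the others (-0.187 to 0.201), and the median r of the list was 0.013. Dennd5b also went against the platelet score (r = -0.42, p = 0.00889, adjusted 0.033, rho -0.561, p = 0.00338, adjusted 0.0188, and -0.642 without 2 arrays). No relation of the 3 genes with the neutrophil score passed in either kind of mice, with r between -0.123 and 0.384. Over the 12 reticulocyte genes the median r with B3gnt8, Dennd5b and Upb1 was -0.353, -0.323 and -0.307 in 90Sr arrays, where 0 of 12 were positive. In control arrays it was -0.368, -0.318 and -0.266, with 1, 1 and 3 of 12 positive.

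The mean scores of the other lists differed between 90Sr and control mice by -0.56 log2 units for NK cells, -0.44 for neutrophils, -0.42 for plasmacytoid dendritic cells and 0.26 for platelets. By limma, 4 of 16 T cell genes, 2 of 10 NK cell genes, 3 of 10 neutrophil genes and 2 of 7 plasmacytoid dendritic cell genes were called lower at 1 or more days, against 34.3% of all tested genes. Called higher at 1 or more days were 1 T cell gene (Cd8b1), 3 plasmacytoid dendritic cell genes (Siglech, Pacsin1 and Runx2), 9 of 11 reticulocyte genes and 1 of 4 platelet genes, against 28.4% of all tested genes.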
